A study of Homo sapiens with 12 samples.

Results

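The 9 genes described here encode structural filament proteins of the cytoplasm and the nucleus. They were read in the human embryonic stem cell line H9, which is long established in culture. They are vimentin (VIM), nestin (NES), the simple-epithelial keratins KRT8, KRT18 and KRT19, the A-type lamin gene LMNA, the B-type lamin genes LMNB1 and LMNB2, and plectin (PLEC), a very large plakin protein that ties filaments to other parts of the cell. They were chosen by symbol as a family and are 9 of the 53717 genes in the deposited count table and 9 of the 17264 that had enough reads to be tested. RNA was measured in 3 groups of 4 libraries, which differ in the fluorescein-labelled oligonucleotide delivered by lipofection at 25 nM. ASO-L1 is antisense to transcripts of LINE1, an abundant human retrotransposon. sO-L1 is the sense oligo for the same element, and ASO-Ctr is an antisense oligo with no specific target. All 12 libraries came from cells in RSeT, a medium for naive-type stem cells, and all 3 groups also received trans-ISRIB (0.7 uM), the caspase inhibitor emricasan (5 uM) and Y-27632 (10 uM), withdrawn after 24 h. Y-27632 inhibits a kinase that regulates the cytoskeleton, so no library came from cells that had not met it. Fluorescent cells were sorted at 48 h, and directional poly(A) libraries were made from 80 to 130 ng of RNA. The study asks how LINE1 bears on genes of the 8-cell stage, and no row of the count table measures LINE1 itself.

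Intermediate filaments are rope-like polymers that give cells and nuclei mechanical strength. Vimentin is the filament protein of mesenchymal and many cultured cells, and nestin, best known from neural progenitors, joins vimentin in mixed filaments. Keratins form only as pairs of an acidic and a basic chain, so KRT8 needs KRT18 or KRT19 as its partner, and these chains are among the first filament proteins of the mammalian embryo. Lamins line the inside of the nuclear envelope. B-type lamins are made in nearly all cells, while A-type lamins are scarce in pluripotent cells and accumulate as cells differentiate.

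Total counts were 22.8 to 55.1 M per library. A count of 3, the most that a count of 0 allows, corresponded to 0.0534 to 0.128 CPM (counts scaled to a common library size), and such floors cover counting error only. Mitochondrial genes took 5.59 to 6.48% of counts. All 15 pluripotency markers were detected, and their summed level was 13006 to 13369 CPM in ASO-L1, 13874 to 14344 CPM in sO-L1 and 14214 to 14478 CPM in ASO-Ctr. In ASO-L1 against ASO-Ctr, 2 of these 15 were called higher (EPCAM and DPPA4) and 6 lower, led by TERF1, CDH1 and DNMT3B. Of all genes 21.2% were called higher and 23.1% lower, 44.3% in either direction (edgeR, adjusted p under 0.05). The other 7 were not called, among them, named after their values were seen, POU5F1, NANOG and SOX2 (log2 0.09, 0.05 and -0.07). DNMT3B alone had 1764 ± 169 CPM in ASO-L1 and 2505 ± 154 CPM in ASO-Ctr. No label says that replicates were separate cultures, so p-values measure only the spread between these libraries, which may be technical. In these bulk libraries, a change in RNA per cell cannot be told apart from a change in the share of cells that make it.

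VIM, LMNA, NES, KRT18 and KRT8 were higher in ASO-L1 than in ASO-Ctr, while KRT19, LMNB1, LMNB2 and PLEC were not called. VIM stood out at 3.43-fold and LMNA at 1.91-fold, and the other called genes lay between 1.11- and 1.32-fold. A gene was called when its adjusted p was under 0.05 in edgeR's quasi-likelihood test, with replicate number as a block and Benjamini-Hochberg adjustment over all 17264 genes. By this test 5 of the 9 were called higher, against 21.2% of all genes, and 0 were called lower, against 23.1% of all genes (44.3% in either direction). None of the 4 uncalled genes had an unadjusted p under 0.05, and DESeq2 and limma also called 0 lower. The median log2 fold change was 0.15 over the 9 genes and -0.0028 over all genes tested. The CPM ranges of the 4 and 4 libraries were apart for VIM, NES, KRT18 and LMNA, all in the higher direction, which also held for 16.3% of all genes. None had a lower range apart, against 17% of all genes.

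**Figure D1:**
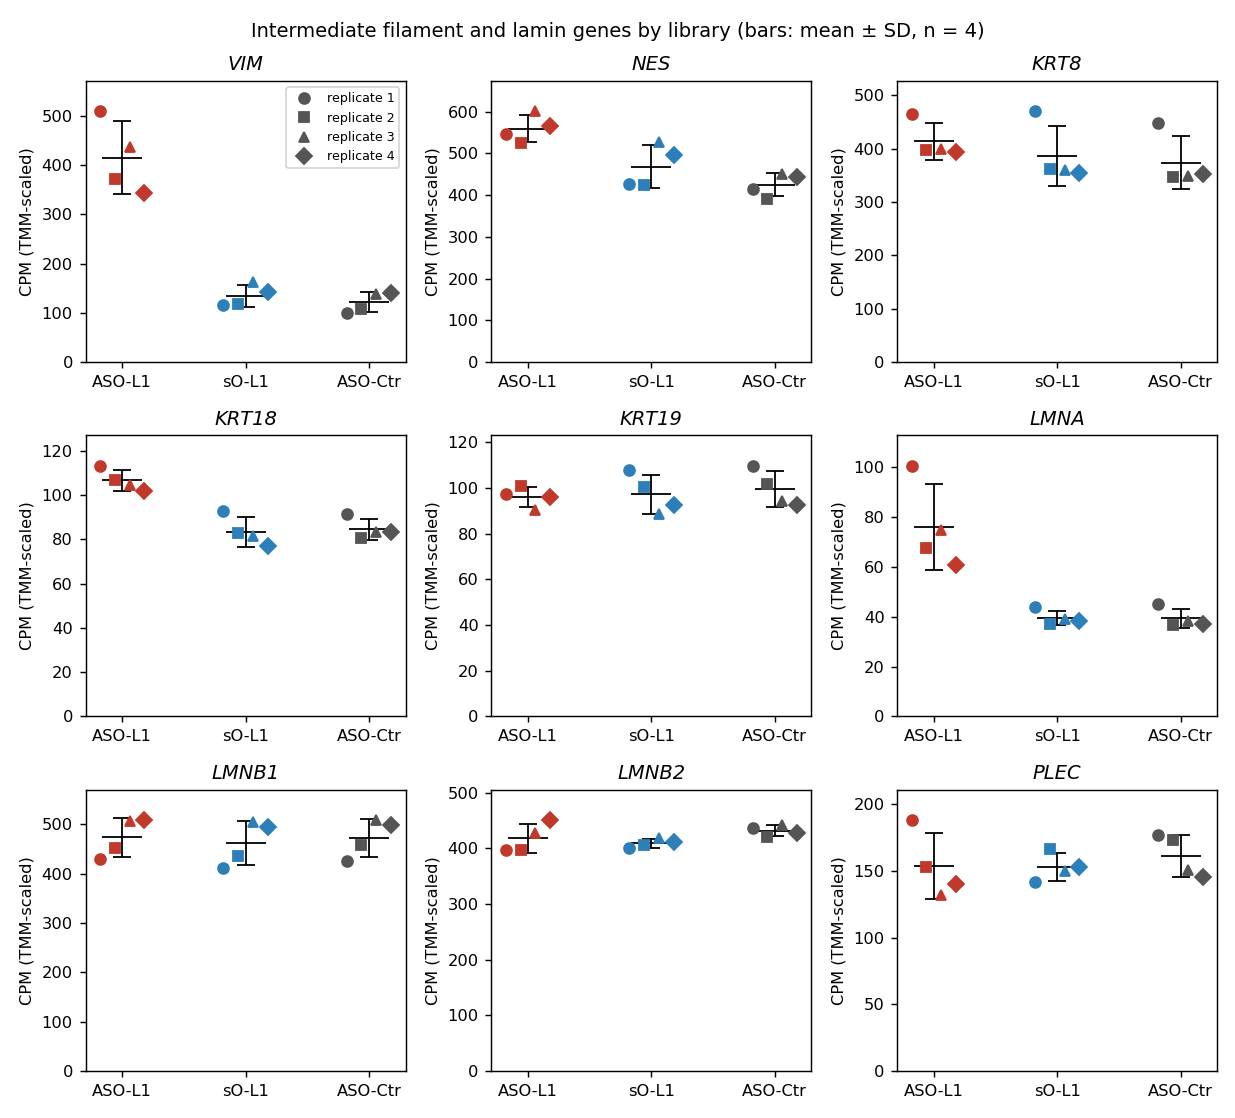
Level of each of the 9 genes in CPM (vertical axes, from 0) in every library of ASO-L1, sO-L1 and ASO-Ctr; symbols mark the replicate number and bars the mean ± SD of 4 libraries. VIM and LMNA in the 4 ASO-L1 libraries sit above all 8 others, and KRT8 in replicate 1 sits above replicates 2 to 4 in every group.

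VIM had 509.7, 371, 437 and 343 CPM in ASO-L1 replicates 1 to 4, 115, 118, 163 and 143 CPM in sO-L1, and 99.1, 108, 138 and 141 CPM in ASO-Ctr. The lowest ASO-L1 library lay far above the highest of the other 8. The group means were 415 ± 74.4, 135 ± 22.5 and 122 ± 21.0 CPM in ASO-L1, sO-L1 and ASO-Ctr (SD, n = 4 each). The log2 fold change was 1.78 (SE 0.11, 95% interval 1.54 to 2.02, edgeR adjusted p = 9.87e-09), the rank of 89 from the top among all genes tested. Within replicate numbers 1 to 4 the difference of log2 CPM was 2.36, 1.78, 1.66 and 1.28. All pairs moved the same way, by unequal amounts. Rows for VIM-AS1 and a VIM pseudogene held 0.632% as many reads as VIM.

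NES had 546, 525, 601 and 565 CPM in ASO-L1, 426, 423, 527 and 496 CPM in sO-L1, and 414, 390.3, 451 and 444 CPM in ASO-Ctr. Every ASO-L1 library exceeded every ASO-Ctr library, while the lowest ASO-L1 value fell just under the highest sO-L1 value. The log2 fold change of ASO-L1 against ASO-Ctr was 0.40 (SE 0.04, edgeR adjusted p = 6.94e-07), or 1.32-fold, with a 95% interval of the log2 value of 0.31 to 0.48. NES was thus called, at a much smaller size than its filament partner VIM.

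The keratins did not move as a unit. KRT18, the acidic chain, had 113, 107, 104 and 102 CPM in ASO-L1, 92.8, 82.6, 81.4 and 76.8 CPM in sO-L1, and 91.5, 80.4, 83.0 and 83.1 CPM in ASO-Ctr. The ASO-L1 range lay wholly above both others, and KRT18 was 1.26-fold higher than in ASO-Ctr (log2 0.33, SE 0.04, edgeR adjusted p = 1.26e-05). KRT8, its basic partner, had 465, 397, 400.2 and 393 CPM in ASO-L1, 471, 362, 359.5 and 355 CPM in sO-L1, and 448, 348, 348.4 and 352 CPM in ASO-Ctr. Replicate 1 was the highest in all 3 groups, so the ranges overlapped. Within replicate numbers the KRT8 difference between ASO-L1 and ASO-Ctr was 0.05, 0.19, 0.20 and 0.16 on the log2 scale. The fitted log2 fold change was 0.15 (SE 0.04, edgeR adjusted p = 0.00456). The KRT8 call was lost without the replicate block (adjusted p = 0.263), without replicate 2 (0.0538) and without replicate 3 (0.0629). KRT19, the other acidic chain, had 90.5 to 101 CPM in ASO-L1, 88.6 to 108 CPM in sO-L1 and 92.4 to 109.8 CPM in ASO-Ctr. Its log2 fold change of -0.05, with a 95% interval of -0.15 to 0.05, was not called (edgeR adjusted p = 0.447). Both KRT8 and KRT18 have many processed pseudogenes, whose rows together held 3.18% as many reads as KRT8 and 1.23% as many as KRT18. These shares cover only reads assigned to those rows. How many keratin reads were dropped or misplaced because of the copies was not measured.

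In the nucleus, only the A-type lamin gene was called. LMNA had 101, 67.7, 74.7 and 60.9 CPM in ASO-L1, 43.7, 37.0, 38.9 and 38.3 CPM in sO-L1, and 45.2, 36.9, 38.1 and 37.0 CPM in ASO-Ctr. All ASO-L1 libraries lay above all 8 others. The log2 fold change was 0.93 (SE 0.07, 95% interval 0.79 to 1.08, edgeR adjusted p = 3.42e-08), and differences within replicate numbers 1 to 4 were 1.15, 0.88, 0.97 and 0.72. The counts do not separate the lamin A and lamin C transcripts, which LMNA makes by alternative splicing.

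The B-type lamins showed no called difference. LMNB1 had 429.6, 452, 506 and 509 CPM in ASO-L1, 412, 435, 504 and 495 CPM in sO-L1, and 426, 457, 508 and 499 CPM in ASO-Ctr. These values followed the replicate number and nearly coincided between groups, and the 95% interval of the ASO-L1 against ASO-Ctr fold change was 0.954 to 1.06 (edgeR adjusted p = 0.928). LMNB2 had 397 to 451 CPM in ASO-L1, 400.2 to 419 CPM in sO-L1 and 420.3 to 442 CPM in ASO-Ctr, with an interval of 0.913 to 1.03 (adjusted p = 0.356).

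PLEC had 188, 153, 132 and 140.2 CPM in ASO-L1, 142, 167, 150.0 and 153 CPM in sO-L1, and 177, 173, 151 and 145 CPM in ASO-Ctr. Its ranges overlapped and it was not called (log2 -0.08, edgeR adjusted p = 0.394). The value of 1 library decided this, since without ASO-L1 replicate 1 PLEC was called lower in ASO-L1 than in ASO-Ctr (log2 -0.18, adjusted p = 0.00155). Leaving out replicate 1 of every group also gave a lower call, both against ASO-Ctr (log2 -0.13, adjusted p = 0.00275) and against sO-L1 (log2 -0.14, adjusted p = 0.00186). That ASO-L1 library had the highest level among the 12 for VIM, LMNA, KRT18 and PLEC.

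**Figure D2:**
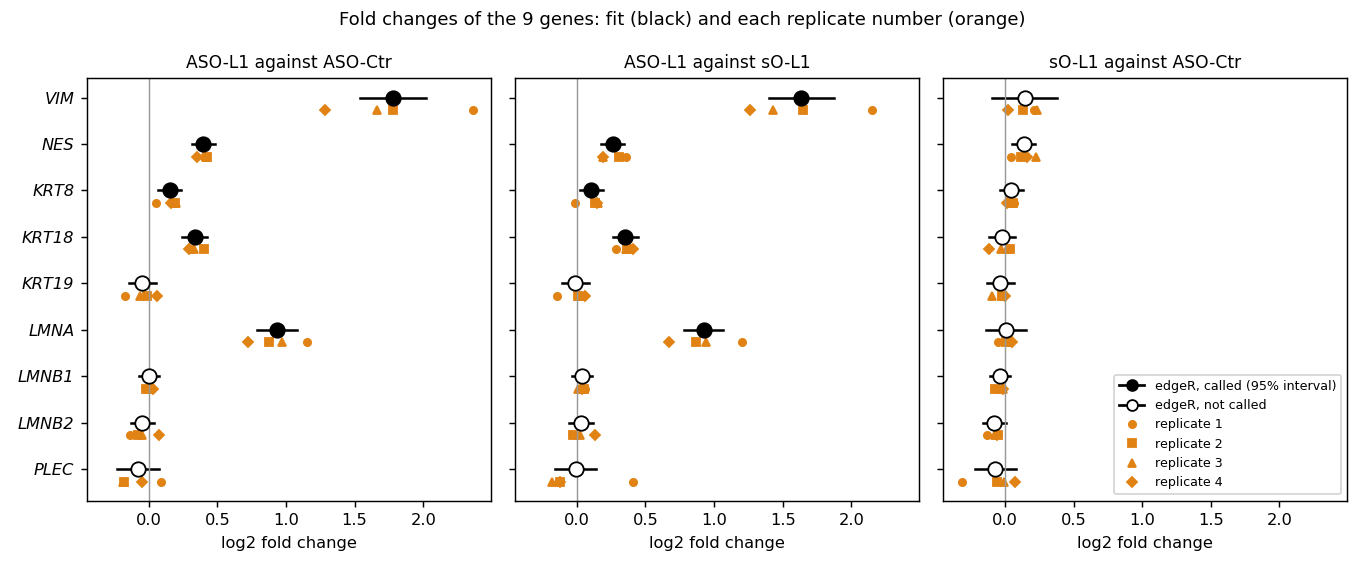
Log2 fold change of each gene (horizontal axes) in the 3 comparisons; black circles are the edgeR estimates with 95% intervals, filled where called, and orange symbols are differences of log2 CPM within each replicate number. VIM and LMNA lie far to the right in both ASO-L1 panels. In the panel of sO-L1 against ASO-Ctr no gene was called, and only the interval of NES (0.05 to 0.22) excludes 0.

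The sense oligo sO-L1 gives another comparison for ASO-L1. Since it uses the same ASO-L1 libraries as the one against ASO-Ctr, the values stand side by side and are not separate evidence. Here 5 of 9 were called higher, against 21.1% of all genes, and 0 were called lower, against 22.9% (44% in either direction), with 0 lower by DESeq2, limma or an unadjusted p under 0.05. VIM was 3.11-fold and LMNA 1.90-fold higher in ASO-L1 than in sO-L1 (edgeR adjusted p = 2.41e-08 and 3.45e-08), against 3.43- and 1.91-fold relative to ASO-Ctr. KRT18 was 1.28-fold higher (adjusted p = 6.74e-06) and NES 1.20-fold (adjusted p = 5.01e-05). KRT8 was 1.08-fold higher (adjusted p = 0.0372), in 3 of 4 replicate numbers, and its call was lost in 12 of 19 alternative analyses, 9 of them leave-outs of libraries, with adjusted p up to 0.213 among the leave-outs and 0.467 without the replicate block. The authors' deposited table for this comparison gave VIM a log2 fold change of 1.61, LMNA 0.93, KRT18 0.35 and NES 0.26, all with an adjusted p under 0.05, as for 32.8% of its 20856 genes. In the authors' deposited table KRT8 had a log2 fold change of 0.11 and an adjusted p of 0.182. Ranges in ASO-L1 lay above those in sO-L1 for VIM, KRT18 and LMNA, against 16% of all genes, and 0 lay below, against 16.2%.

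Between the control oligos, sO-L1 against ASO-Ctr, 0 of 9 genes were called by edgeR, against 0.29% of all genes (0.0695% higher and 0.22% lower). NES alone had an unadjusted p under 0.05 (log2 0.14, adjusted p = 0.265), and DESeq2 and limma also called 0. NES was called without replicate 1 (log2 0.17, adjusted p = 0.000772), and NES and VIM were called when the fit held these 2 groups alone (adjusted p = 0.00233 and 0.0038). VIM was 1.10-fold higher in sO-L1 in the full fit, with a 95% interval of 0.939 to 1.30, and was higher in 4 of 4 replicate numbers. LMNB2 was the only gene whose ranges were apart, lower in sO-L1 (log2 -0.08, adjusted p = 0.749), which also held for 1.99% of all genes, and 0 had a higher range apart, against 1.24%. For LMNA the interval of the fold was 0.910 to 1.11.

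Ratios of gene pairs within a library do not depend on how libraries are scaled. The count ratio of VIM to KRT8 was 0.871 to 1.10 in ASO-L1, 0.244 to 0.453 in sO-L1 and 0.221 to 0.3999 in ASO-Ctr. Reads of VIM thus came close to those of KRT8 in ASO-L1 and were at most 0.453 of them in every other library. The ratio of LMNA to LMNB1 was 0.120 to 0.234 in ASO-L1, 0.0772 to 0.106 in sO-L1 and 0.0740 to 0.106 in ASO-Ctr. The ratio of KRT8 to KRT18 was 3.73 to 4.11 in ASO-L1, 4.38 to 5.07 in sO-L1 and 4.20 to 4.90 in ASO-Ctr, so it was lower in ASO-L1 than in every other library.

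Mean log2 ratios in ASO-L1 minus those in ASO-Ctr were 1.62 for VIM to KRT8, 0.93 for LMNA to LMNB1 and -0.18 for KRT8 to KRT18. Against sO-L1 they were 1.52, 0.88 and -0.25. In a two-sided exact permutation test of 4 against 4 libraries each of these 6 differences had p = 0.0286, the smallest this design allows, and an adjusted p of 0.0429 over 9 tests. Each went the same way in 4 of 4 replicate numbers. The ratios in sO-L1 and ASO-Ctr differed by at most 0.10 on the log2 scale (exact permutation test, adjusted p from 0.514 to 0.686). All 3 ratios were higher in sO-L1 in 4 of 4 replicate numbers, by 0.02 to 0.13 for KRT8 to KRT18, 0.01 to 0.19 for VIM to KRT8 and 0.00078 to 0.08 for LMNA to LMNB1. A paired exact test of 4 differences cannot give a p below 0.125, so a small difference between these groups was not detectable by it.

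**Figure D3:**
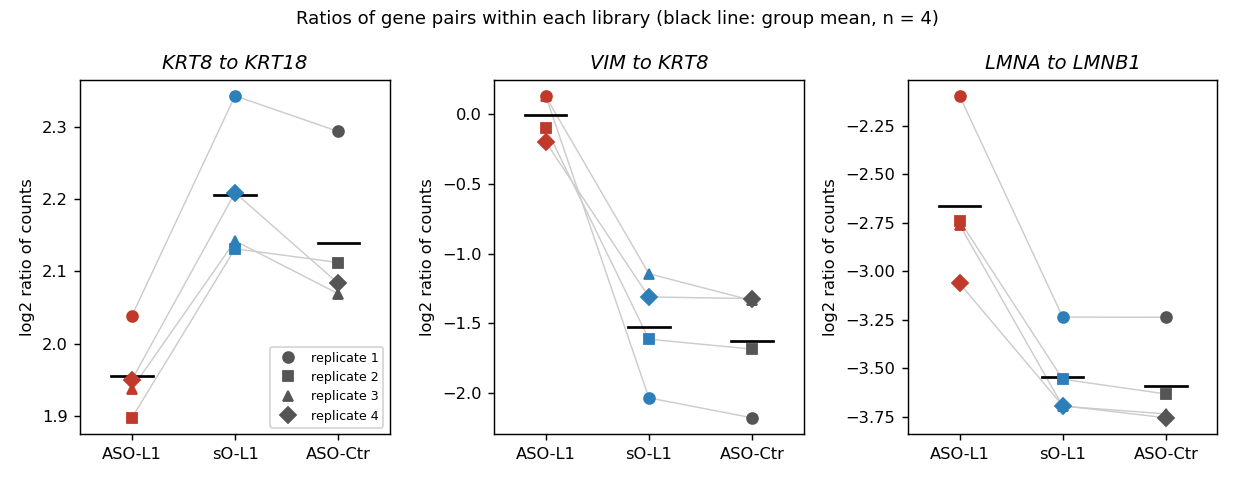
Log2 ratio of raw counts (vertical axes) of KRT8 to KRT18, VIM to KRT8 and LMNA to LMNB1 in each library of ASO-L1, sO-L1 and ASO-Ctr; grey lines join libraries of the same replicate number and black bars are group means. In each panel the ASO-L1 libraries form a range apart from the other 8.

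To set levels of different genes beside each other, CPM was divided by the length of annotated exons in kb (GENCODE 29, GRCh38). The union of exons can be longer than the transcript made, which lowers a value per kb. In ASO-L1 the order was VIM (222 ± 39.8), LMNB1 (160 ± 13.3), NES (101 ± 5.84), KRT8 (90.4 ± 7.48), LMNB2 (89.5 ± 5.52), KRT19 (69.2 ± 3.12), KRT18 (53.0 ± 2.43), LMNA (18.1 ± 4.12) and PLEC (9.33 ± 1.504), in CPM per kb (SD, n = 4). In ASO-Ctr it was LMNB1 (159 ± 12.8), LMNB2 (92.4 ± 2.05), KRT8 (81.7 ± 10.8), NES (76.4 ± 5.06), KRT19 (71.6 ± 5.69), VIM (65.1 ± 11.2), KRT18 (42.1 ± 2.40), PLEC (9.82 ± 0.96) and LMNA (9.34 ± 0.943) CPM per kb. VIM thus moved to the top of this order in ASO-L1, a place that rests on the lengths used (1868 bases for VIM, 4581 for KRT8). Before division by length, VIM had a mean of 415 CPM in ASO-L1. That was below NES (559 CPM) and LMNB1 (474 CPM) and level with KRT8 (414 CPM). Neighbours that lay closer than their spread were KRT8 and LMNB2 in ASO-L1, each step from LMNB2 down to VIM in ASO-Ctr, and PLEC and LMNA in ASO-Ctr. LMNB1 stayed well above LMNA in all 3 groups, at 155 ± 15.2 and 9.38 ± 0.697 CPM per kb in sO-L1.

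Windows from RefSeq's promoter table (GRCh38.p14) were used for 6 of the 9 genes, namely VIM, NES, KRT8, LMNA, LMNB1 and LMNB2. None was found for KRT18 or KRT19, and windows on the chromosome that holds PLEC were left out. This does not mean that RefSeq lists no start for KRT18, KRT19 or PLEC. The 250 bases before the start are shown for the 4 of these 6 genes with 1 start in that table. VIM, NES and KRT8, called higher in ASO-L1, can so be read beside LMNB2, which was not called. The KRT8 call was lost in some alternative analyses. Capitals mark the GC box GGGCGG on either strand (CCGCCC where it lies on the opposite strand). The windows are chr10:17227991-17228240 (plus strand) for VIM, chr1:156677408-156677657 (minus) for NES, chr12:52926470-52926719 (minus) for KRT8 and chr19:2456960-2457209 (minus) for LMNB2, each written 5′ to 3′ on the gene's strand.
VIM: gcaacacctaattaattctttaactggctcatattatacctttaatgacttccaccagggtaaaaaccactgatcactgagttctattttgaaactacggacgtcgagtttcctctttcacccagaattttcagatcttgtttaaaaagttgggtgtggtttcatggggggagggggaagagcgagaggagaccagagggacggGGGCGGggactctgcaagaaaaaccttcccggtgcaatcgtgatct
NES: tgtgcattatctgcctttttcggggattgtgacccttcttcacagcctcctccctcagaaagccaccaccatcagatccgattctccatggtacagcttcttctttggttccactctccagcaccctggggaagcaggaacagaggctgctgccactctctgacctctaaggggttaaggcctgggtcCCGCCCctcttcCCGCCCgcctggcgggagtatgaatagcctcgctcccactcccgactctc
KRT8: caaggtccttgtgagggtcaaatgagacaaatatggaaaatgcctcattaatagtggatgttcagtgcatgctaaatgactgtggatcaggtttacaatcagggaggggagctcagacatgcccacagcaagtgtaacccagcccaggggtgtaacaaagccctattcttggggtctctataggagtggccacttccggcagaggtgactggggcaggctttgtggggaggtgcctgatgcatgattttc
LMNB2: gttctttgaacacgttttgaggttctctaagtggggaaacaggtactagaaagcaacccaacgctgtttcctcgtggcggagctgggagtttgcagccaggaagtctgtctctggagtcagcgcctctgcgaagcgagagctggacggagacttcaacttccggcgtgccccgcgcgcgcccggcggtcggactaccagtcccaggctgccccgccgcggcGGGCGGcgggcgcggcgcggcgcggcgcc
The GC box stands at -46 to -41 from the start in VIM, at -62 to -57 and -50 to -45 in NES, and at -29 to -24 in LMNB2, with no match in the KRT8 window. It is in 42.6% of the 35116 RefSeq windows of this length. The CCAAT box (32% of windows), TATAAA (10.7%), the AP-1 motif TGANTCA (6.57%) and the CArG box of serum response factor (1.16%), searched on both strands, had no match in these 4 windows. GC content was 46% for VIM, 58% for NES, 50.4% for KRT8 and 66.4% for LMNB2. LMNA has 3 starts in the table and LMNB1 has 2. At least 1 window of each of these genes held a GC box and a CCAAT box. For all 6 genes, KRT8 included, whether these cells used a listed start was not analysed here. A window may therefore lie away from the start in use.

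Across the 12 libraries, with log2 CPM centred within each replicate number, VIM and LMNA had a Pearson r of 0.99, VIM and KRT18 0.95, and VIM and NES 0.95. KRT8 and KRT18 had r = 0.88, LMNB1 and LMNB2 0.44, VIM and KRT19 -0.51, and KRT8 and PLEC -0.62. These values describe 12 libraries that share the group difference, the same scaling and depth. Of all tested genes outside the 9 whose log2 CPM averaged 3 or more, those most like VIM were RHOB (a small GTPase, r = 0.999), AEN (an apoptosis-related nuclease, 0.998), SLC3A2 (heavy chain of amino acid transporters, 0.998), MTRR (methionine synthase reductase, 0.997) and TRAF4 (a signalling adaptor, 0.997). Their own log2 fold changes in ASO-L1 against ASO-Ctr were 1.08, 0.78, 1.02, 0.44 and 0.47, so the likeness is of pattern and not of size. Among the genes most like KRT18 were MRTO4, RPLP1, RPL8 and GNB2L1, at r from 0.991 to 0.994. LMNB1 was most like URB1, SAPCD2, TCF20, GRB10 and FLNA, at r from 0.908 to 0.928.

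Other cytoplasmic filament genes were mostly silent in these cells. Of 40 such genes 27 had too few reads to be tested and 7 had none in any library. Of the 13 tested in ASO-L1 against ASO-Ctr, 4 were called higher and 4 lower (21.2% and 23.1% of all genes), with a median log2 fold change of -0.04. Since some genes passed the read filter only through the group where they were higher, this count gives no direction for the list. The neurofilament genes split. NEFL, the light chain, had 36.6 ± 12.9 CPM in ASO-L1 and 24.8 ± 5.44 CPM in ASO-Ctr (log2 0.52, edgeR adjusted p = 5.88e-05). NEFH, the heavy chain, had 42.7 ± 5.78 and 58.4 ± 1.95 CPM (log2 -0.46, adjusted p = 3.23e-05), and NEFM, the medium chain, 8.44 ± 0.92 and 12.3 ± 3.29 CPM (log2 -0.51, adjusted p = 0.00169), in the same order of groups. The other genes called higher were PRPH, KRT10 and SYNM, and those called lower were BFSP1 and SYNC. PRPH, encoding peripherin, had 0.514 ± 0.166 CPM in ASO-L1 and 0.0944 ± 0.0535 CPM in ASO-Ctr, the second value being near the floor. Against sO-L1, 3 were called higher and 6 lower, and in sO-L1 against ASO-Ctr edgeR called 0, with 1 at an unadjusted p under 0.05.

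Genes of filament anchorage at the cell edge were called in both directions. Of 22 genes for plakins, desmosomes and hemidesmosomes 20 were tested in ASO-L1 against ASO-Ctr, with 2 called higher and 9 lower, where 21.2% and 23.1% of all genes were called higher and lower. Their median log2 fold change was -0.16, and the difference between this list and all genes was not tested. DSP encodes desmoplakin, which links keratins to desmosomes. It was higher, at 160 ± 7.77 CPM in ASO-L1 and 103 ± 18.3 CPM in ASO-Ctr (log2 0.66, edgeR adjusted p = 6.01e-05). The other gene called higher was NUMA1 (log2 0.15), which the list held although it is not a plakin, desmosome or hemidesmosome gene. Its call was lost in 8 of 19 alternative analyses. DST encodes dystonin, a plakin related to plectin, and it was lower, at 87.0 ± 12.7 CPM in ASO-L1 and 169 ± 24.0 CPM in ASO-Ctr (log2 -0.95, adjusted p = 1.09e-08). ITGA6, an integrin chain not confined to hemidesmosomes, had 148 ± 11.9 CPM in ASO-L1 and 229 ± 3.69 CPM in ASO-Ctr (log2 -0.64, adjusted p = 4.24e-08). The hemidesmosome genes ITGB4 and COL17A1, named after their values were seen, were far lower in level and not called. ITGB4 had 4.17 ± 0.254 CPM in ASO-L1 and 4.36 ± 1.08 CPM in ASO-Ctr (edgeR adjusted p = 0.699). COL17A1 had 1.71 ± 0.388 and 1.77 ± 0.432 CPM (edgeR adjusted p = 0.871). PKP4 had a log2 fold change of -0.56 (adjusted p = 1.1e-06). The others called lower, named after their values were seen, were EVPL, CTNND1, DSG2, MACF1, PPL and JUP, at log2 -0.65 to -0.18. Like NUMA1, CTNND1 (log2 -0.35) is not a plakin, desmosome or hemidesmosome gene. Against sO-L1, 2 were called higher and 8 lower. In sO-L1 against ASO-Ctr edgeR called 0, with 3 at an unadjusted p under 0.05.

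Genes that process lamins or bind them at the inner nuclear membrane went both ways. All 26 were tested in ASO-L1 against ASO-Ctr, with 9 called higher, 5 lower and a median log2 fold change of 0.02, where 44.3% of all genes were called in either direction. Among the 26, MAN1B1 encodes a mannosidase and not the lamin partner MAN1, and it was not called (log2 0.06, edgeR adjusted p = 0.527). The 9 higher ones, named after their values were seen, fell between log2 0.17 and 0.48. Among them, ZMPSTE24, the protease that matures prelamin A, had 181 ± 14.0 CPM in ASO-L1 and 158 ± 15.0 CPM in ASO-Ctr (log2 0.19, edgeR adjusted p = 0.0153), a call lost in 3 of 19 alternative analyses. RCE1 (log2 0.40) and FNTA (0.17) act on the CAAX end of prenylated proteins, lamins included. TOR1AIP1 (0.31), TOR1AIP2 (0.48) and TOR1B (0.42) belong to the torsin system of the nuclear envelope, and TMEM43 (0.30), TMEM201 (0.31) and ANKLE2 (0.17) are membrane proteins of the nuclear envelope or the reticulum joined to it. The 5 lower genes were RB1, LEMD3, CBX5, EMD and NUP88. RB1, the retinoblastoma protein, which binds A-type lamins, had 28.1 ± 5.60 CPM in ASO-L1 and 46.5 ± 8.30 CPM in ASO-Ctr (log2 -0.73, adjusted p = 1.24e-07). LEMD3 and EMD, encoding the LEM-domain proteins MAN1 and emerin, had log2 fold changes of -0.50 and -0.24. CBX5, encoding heterochromatin protein HP1 alpha, had -0.32 and NUP88 -0.20. Against sO-L1, 9 were called higher and 6 lower. In sO-L1 against ASO-Ctr edgeR called 0, with 1 at an unadjusted p under 0.05.

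SUN and nesprin proteins form the LINC complex, which joins the lamina to the cytoskeleton. Of 7 such genes 5 were tested, and in ASO-L1 against ASO-Ctr 1 was called in each direction, where 21.2% of all genes were called higher and 23.1% lower. SUN1, which binds the lamina, had 121 ± 11.3 CPM in ASO-L1 and 98.7 ± 5.65 CPM in ASO-Ctr (log2 0.29, edgeR adjusted p = 0.00237). SYNE2, a giant nesprin, had 109 ± 15.3 CPM in ASO-L1 and 149 ± 12.9 CPM in ASO-Ctr (log2 -0.46, adjusted p = 1.68e-05). Against sO-L1, 1 was called higher and 2 lower. In sO-L1 against ASO-Ctr 0 were called by edgeR, and 0 had an unadjusted p under 0.05. For each of these 4 lists DESeq2 and limma also called 0 in sO-L1 against ASO-Ctr.

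**Figure D4:**
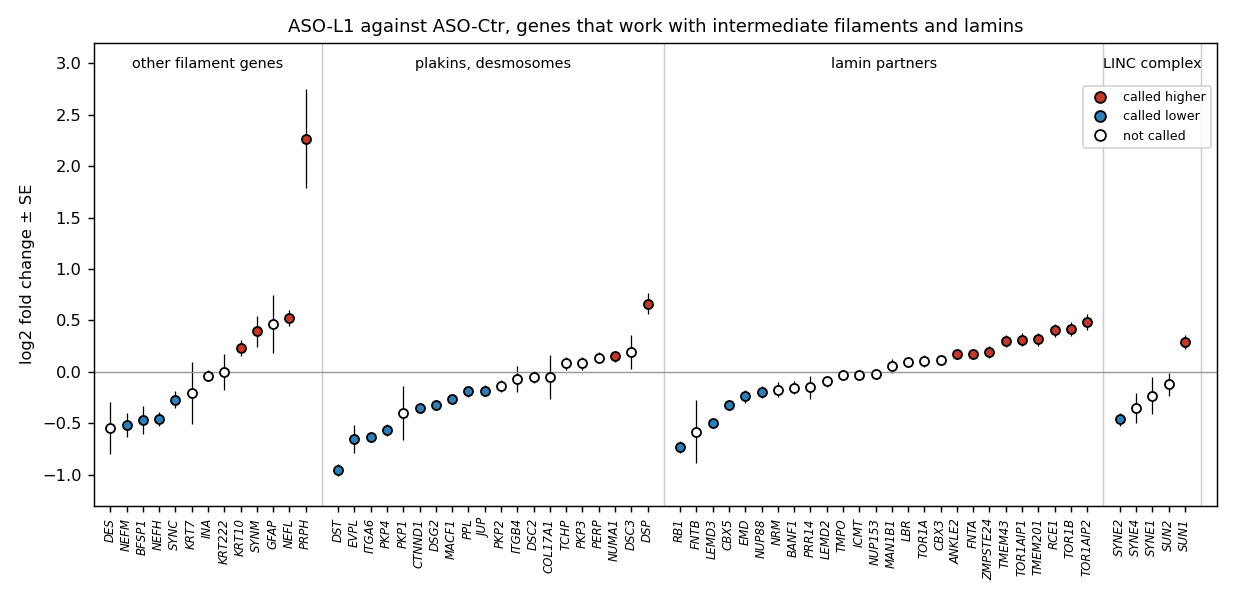
Log2 fold change ± SE (vertical axis) in ASO-L1 against ASO-Ctr of each tested gene of the partner lists, ordered by value within a list; red marks genes called higher, blue genes called lower and white genes not called. DST at -0.95 and RB1 at -0.73 are the lowest of their lists, and DSP at 0.66 is the highest of the anchorage genes.

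Because these 9 genes also mark other cell types, markers of such cells were read in the same libraries. In ASO-L1 against ASO-Ctr 21.2% of all genes were called higher and 23.1% lower. A marker can pass the read filter only through the group where it is higher, so the counts below give no direction for a list. Of 15 fibroblast and mesenchyme markers 9 were tested in ASO-L1 against ASO-Ctr, with 3 called higher (TWIST1, THY1 and S100A4) and 2 lower (PDGFRA and COL1A2). TWIST1, a mesenchymal transcription factor, had 3.89 ± 2.69 CPM in ASO-L1 and 0.311 ± 0.279 CPM in ASO-Ctr (log2 3.66, edgeR adjusted p = 9.32e-08). The second value was not far above the floor, which was 0.128 CPM in ASO-Ctr replicate 1. The summed level of the list was 126 to 149 CPM in ASO-L1, 123 to 151 CPM in sO-L1 and 134 to 160 CPM in ASO-Ctr, so the groups overlapped. The list held both abundant and nearly silent genes. Over all 12 libraries THY1 had 24343 reads, COL1A2 22455, PDGFRA 5863 and COL1A1 5315, while COL3A1 had 6, FAP 3, DCN 2 and LUM 0. The collagen gene COL1A2 had 36.6 ± 4.65 CPM in ASO-L1 and 61.3 ± 8.71 CPM in ASO-Ctr.

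Trophectoderm and amnion are epithelia rich in KRT8 and KRT18. Of 16 of their markers 5 were tested and 1, GATA2, was called higher, where 21.2% of all genes were called higher and 23.1% lower. Their summed level was 8.98 to 13.8 CPM in ASO-L1, 7.09 to 10.0 CPM in sO-L1 and 7.69 to 9.59 CPM in ASO-Ctr, and CDX2 and VGLL1 had 0 reads in all 12 libraries. Neural progenitors are rich in NES. Of 15 of their markers 6 were tested, with PAX6, SOX3 and ZIC2 called higher and DCX and FABP7 lower. Their sums were 35.6 to 43.8 CPM in ASO-L1, 30.7 to 33.2 CPM in sO-L1 and 34.7 to 37.5 CPM in ASO-Ctr, with 22 reads of SOX1 over all libraries. Of 9 endoderm markers 5 were tested, with FOXA2 called higher and PDGFRA and COL4A1 lower, and sums of 90.7 to 132 CPM in ASO-L1, 114 to 150 CPM in sO-L1 and 112 to 150.0 CPM in ASO-Ctr. The part of these markers in the differences of VIM, LMNA, NES and the keratins was not tested.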

How the data were processed

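Stranded poly(A) RNA-seq of 12 libraries was read from tables that the authors deposited. Per the labels, the count table holds raw counts per gene after removal of duplicate reads, which lowers abundant genes more than rare ones. The submitters' processing notes list TopHat2 2.0.13, Trim Galore 0.4.0, Subread 1.5.0 with featureCounts, and build hg19. The gene annotation and strand setting are not given in the sources used here. Another deposited table holds log2 normalized values, batch-corrected by the authors per the labels. The last table holds, for ASO-L1 against sO-L1, the authors' log2 fold changes and p-values and a deposited score that was not used.

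Differences were fitted to the counts with edgeR 4.0.16 in R 4.3.3, using TMM scaling, filterByExpr (count minimum 10) and two-sided quasi-likelihood tests. The model held the 12 libraries, their group and their replicate number, with Benjamini-Hochberg adjustment over 17264 genes. The biological coefficient of variation was 0.0634. Libraries of the same number tended to be alike. The 12 same-number pairs had r from 0.216 to 0.725 in 10549 genes averaging 200 counts or more. Other pairs had a median of -0.22 but reached 0.558 (sO-L1 replicate 4 with ASO-Ctr replicate 3). Replicate numbers 3 and 4 were thus not clearly told apart. Between replicates chi-squared per gene was 3.00 to 29.0, and 0 pairs were identical. Levels are TMM-scaled CPM, and differences within replicate numbers use a prior count of 2. Ratios took raw counts plus 0.5 and an exact permutation test.

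Alternatives were DESeq2 1.42.0, limma 3.58.1 on the authors' log2 values, other scalings, no filter, no block, 2 groups only and leaving out libraries. Members and gene lists were chosen with earlier results of these data known. Named were all 9 genes, up to 3 called genes per list with the smallest adjusted p in ASO-L1 against ASO-Ctr, every called gene of a list with at most 5 calls in that direction, and the 5 genes most like VIM, KRT18 and LMNB1. Exceptions are marked. Some items that the rule or lists cover are not reported here. Values of named genes stand for that comparison.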

Additional observations from a re-analysis of the deposited data

Results flagged for a closer look

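Each of the 9 genes was examined in each group for a library far from the other 3, 27 sets in all, and 4 sets held one; chance flags about 1 in 20. KRT8 was high in replicate 1 of every group: 465 CPM in ASO-L1 (others 393 to 400.2 CPM), 471 CPM in sO-L1 (others 355 to 362 CPM) and 448 CPM in ASO-Ctr (others 348 to 352 CPM). LMNA was high in ASO-Ctr replicate 1, at 45.2 CPM, against 36.9 to 38.1 CPM in the others.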

How the results depend on the processing

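VIM, NES, KRT18 and LMNA kept their call and direction against both ASO-Ctr and sO-L1 in 19 of 19 alternatives, and the log2 fold change of VIM against ASO-Ctr stayed between 1.58 and 1.95. The fit without the replicate block called 5893 genes in ASO-L1 against ASO-Ctr and 5782 against sO-L1, with the KRT8 calls lost, and the block changed no other call of the 9 genes. In sO-L1 against ASO-Ctr the count of all genes called, 50, became 141 with no low-count filter, 17 without the block, 89 with DESeq2, 640 with these 2 groups alone, 137 with limma on the authors' log2 values, and 10 to 241 when libraries were left out, the highest without replicate 1. Of the 9 genes 0 were called there, 2 with these 2 groups alone and 0 to 1 in leave-outs. Ratio differences compared within replicate blocks cannot go below an exact p of 0.125, so -0.18, -0.25, 1.62, 1.52, 0.93 and 0.88 were past no threshold there. Groups of 3 allow no exact p below 0.1. Without 1 replicate number the ratio differences against ASO-Ctr ran from -0.20 to -0.16 for KRT8 to KRT18, from 1.39 to 1.79 for VIM to KRT8 and from 0.85 to 1.004 for LMNA to LMNB1, and against sO-L1 from -0.27 to -0.23, 1.30 to 1.65 and 0.80 to 0.97. Fold changes near 0 and not called changed sign in some leave-outs, over log2 ranges of -0.0403 to 0.0108 for KRT18, -0.0408 to 0.0659 for LMNA and -0.12 to 0.0309 for PLEC in sO-L1 against ASO-Ctr, -0.0821 to 0.00212 for KRT19 and -0.0058 to 0.0158 for LMNB1 (-0.00452 with limma) in ASO-L1 against ASO-Ctr, and -0.051 to 0.0342 for KRT19, -0.0179 to 0.0547 for LMNB2 and -0.14 to 0.052 for PLEC (0.00453 without the block) in ASO-L1 against sO-L1. The cause was not tested. Among the other named genes, in ASO-L1 against ASO-Ctr, calls were lost in 13 of 19 alternatives for SYNM, 8 for NUMA1 and S100A4, 7 for KRT10 and SYNC, 4 for JUP, 3 for ZMPSTE24, and 1 to 2 for BFSP1, NUP88, PPL, FNTA, ANKLE2, SOX3, FABP7, COL4A1, FOXA2 and NEFL (without the block, adjusted p = 0.0503). Over the alternatives, calls higher against ASO-Ctr ran from 2 to 4 for the other filament genes (4 in the main analysis) and 1 to 3 for the anchorage genes (2), and LINC genes lower from 1 to 2 (1) against ASO-Ctr and 1 to 3 (2) against sO-L1.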
